A study of Mus musculus with 6 samples.

Results

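Hedgehog signalling genes were followed in whole mouse lungs at embryonic stage E18.5, shortly before birth. They are the ligand gene Shh, the receptor and surface genes Ptch1, Boc and Hhip, the signal transducer Smo, the cytoplasmic inhibitor Sufu and the transcription factor genes Gli1, Gli2 and Gli3. These 9 genes were taken by gene symbol from the 24521 genes of the authors' normalized table, and their raw read counts were joined by Ensembl identifier. RNA sequencing was done on 3 lungs labelled Mll3FDC/FDC (Mll3 KO) and 3 wild-type lungs. Mll3, the gene Kmt2c, encodes a histone H3 lysine 4 methyltransferase, and the labels describe a knockout in the embryo without naming a Cre driver, the deleted part or the strain. The lungs were dissected before aeration and no agent is recorded for either genotype.

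In the hedgehog pathway a secreted ligand binds Patched, which otherwise holds Smoothened inactive; active Smoothened frees the GLI factors from SUFU, with the primary cilium as the site of these steps. In the developing lung Shh is made by the epithelium and is received by the mesenchyme around it, which forms airway smooth muscle and fibroblasts. Gli1, Ptch1 and Hhip are themselves transcribed in response to the signal and are widely read as its output, and PTCH1 and HHIP then bind ligand and restrain it.

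The 6 libraries held 20158689 to 23305306 reads each, and 19042 genes passed the filter on low counts. The sample titles begin with a number of unstated meaning, the first shared by Mll3 KO 1, wild type 1 and wild type 2 and the second by Mll3 KO 2, Mll3 KO 3 and wild type 3. After it each title carries a further number, different for each sample of a prefix, whose meaning is also unstated. The labels name no embryo or litter, so part of the replicate spread behind each p-value may be technical. Kmt2c was at 143, 171 and 159 CPM (read counts scaled to library depth) in the Mll3 KO lungs and at 162, 179 and 162 CPM in the wild-type lungs, and counts over the whole gene cannot check a partial deletion. Mll3 KO 3 held 59951 Xist reads and the other 5 libraries 6 to 27. It held 4 reads of Y-linked genes and the other 5 libraries 7414 to 9300. By these reads Mll3 KO 3 was a female lung and the others were male, so it came from another embryo than Mll3 KO 1 and 2. By edgeR's quasi-likelihood test, with p-values adjusted by Benjamini-Hochberg over all tested genes, 12 genes (0.063%) rose and 58 (0.305%) fell in Mll3 KO lungs at an adjusted p under 0.05. Surfactant and other alveolar type 2 markers, which identify the tissue, summed to 18610 to 23238 CPM in Mll3 KO lungs and 18754 to 21085 CPM in wild-type lungs over 6 genes. RNA from a whole lung cannot tell fewer cells of a type from less RNA per cell.

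The start sites of 3 of the genes are shown because they bracket the results: Hhip was the most abundant member, Gli3 the member with the lowest p, and Scube2, which encodes a secreted carrier for the ligand's release, was the only other pathway gene past the threshold. Each sequence is the 250 bases before the gene's RefSeq start (GRCm38.p6, the build of the count table's mm10 coordinates), 5′ to 3′ on the gene's own strand, and capitals mark the letters CCACCC, the core of the GLI consensus, or their reverse complement GGGTGG.
Hhip, minus strand of chr8:80058009-80058258: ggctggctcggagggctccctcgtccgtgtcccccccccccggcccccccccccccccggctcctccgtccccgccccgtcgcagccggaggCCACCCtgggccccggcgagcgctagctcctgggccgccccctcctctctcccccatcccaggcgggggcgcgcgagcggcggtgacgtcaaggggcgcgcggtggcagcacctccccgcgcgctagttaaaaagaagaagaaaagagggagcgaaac
Gli3, plus strand of chr13:15463473-15463722: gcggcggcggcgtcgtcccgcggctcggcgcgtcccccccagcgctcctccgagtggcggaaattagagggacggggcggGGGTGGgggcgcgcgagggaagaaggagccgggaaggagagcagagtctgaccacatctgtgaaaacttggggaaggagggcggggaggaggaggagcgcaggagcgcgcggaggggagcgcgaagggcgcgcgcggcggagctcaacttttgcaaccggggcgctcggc
Scube2, minus strand of chr7:109865680-109865929: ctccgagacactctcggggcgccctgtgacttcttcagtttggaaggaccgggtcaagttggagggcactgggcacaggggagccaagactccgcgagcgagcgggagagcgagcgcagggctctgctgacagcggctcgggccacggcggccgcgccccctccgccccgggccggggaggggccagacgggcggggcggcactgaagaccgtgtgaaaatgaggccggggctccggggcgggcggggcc
RefSeq start-site sequences were at hand for 6 of the 9 members (Gli2, Smo, Hhip, Gli3, Ptch1 and Sufu). For Ptch1 (chr13:63565736-63565985) and Gli3 the sequence lay inside the span of the counted gene and not before it. Bases before that span were not searched for these genes. None of these 6 held the full consensus GACCACCCA on either strand, which 0.225% of 32851 mouse start-site sequences of the same length hold. The core, which lies within the consensus, was present in 4 of the 6 (Gli2, Smo, Hhip and Gli3), against 28.1% of all sequences. That share was not matched for base composition, and the difference was not tested. In Hhip it began 158 bases and in Gli3 170 bases before the start, and the Scube2 sequence held none. These are matches of letters and not measured binding.

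None of the 9 members passed the test. Of all tested genes 0.368% did, in either direction. DESeq2 (2.22% called of the 16065 genes to which it gave an adjusted p) and limma voom (0.352% of all tested genes) also called 0 of the 9. In edgeR 1 member, Gli3, had an unadjusted p under 0.05, as did 10.7% of all tested genes. The point estimates were above 0 for 7 members and below 0 for 2, Hhip and Boc; 52.6% of all tested genes were above 0. The log2 fold changes, Mll3 KO over wild type, ran from −0.05 to 0.35 with a median of 0.09, and the median over all tested genes was 0.01. The genotypes did not overlap in 2 members, Gli3 and Shh, and in 17% of all tested genes; in 8.6% of all tested genes, as in these 2, every Mll3 KO value lay above every wild-type value, and in 8.45% every one lay below.

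**Figure D1:**
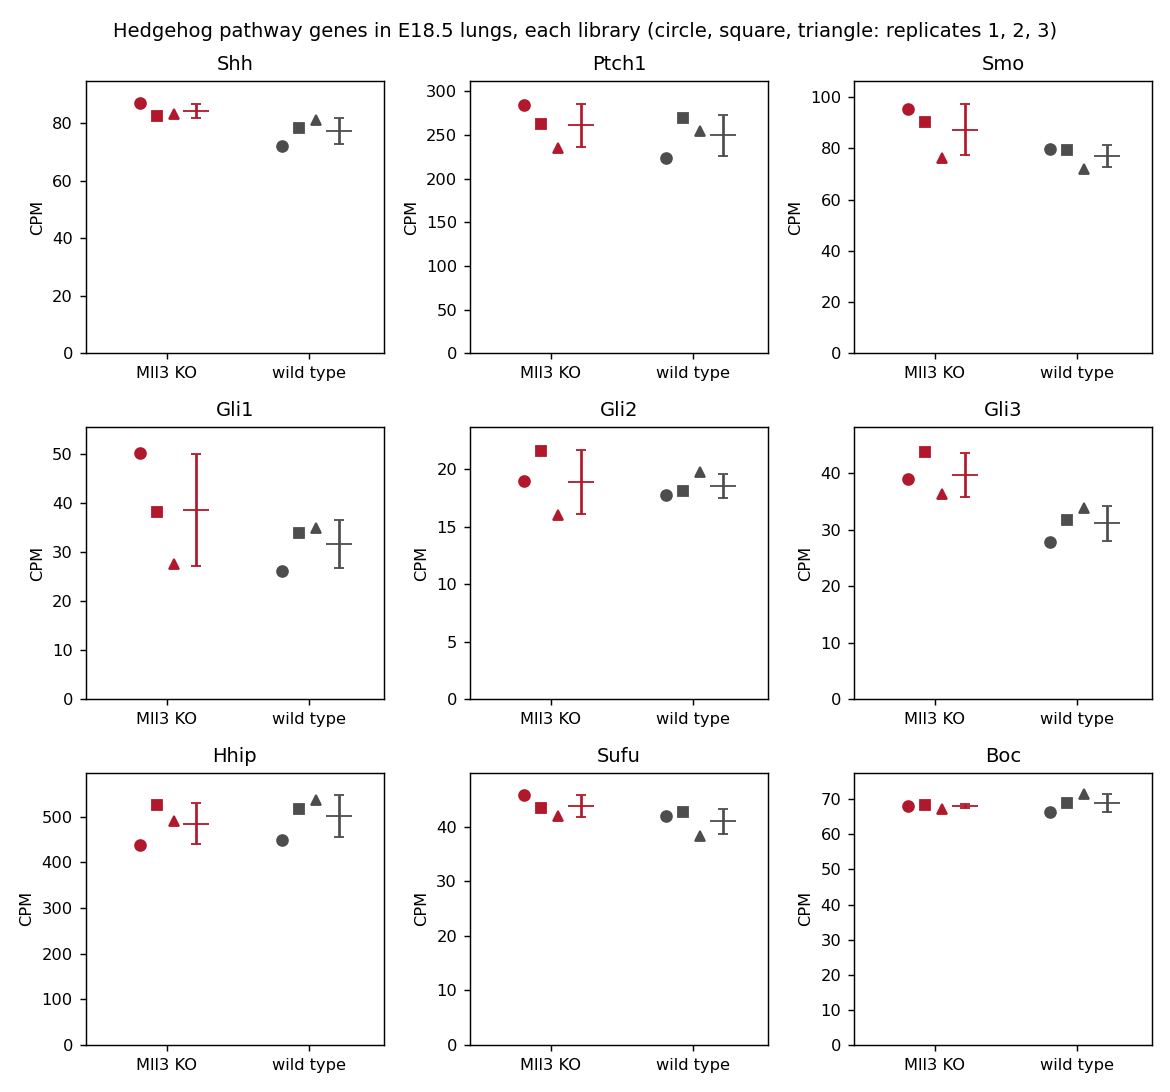
Level of each hedgehog gene in CPM (y axis, from 0) in the 3 Mll3 KO lungs (red, left) and the 3 wild-type lungs (grey, right); circles, squares and triangles are replicates 1, 2 and 3, and the dash with its bar is the mean and SD. The genotypes overlap for all genes but Shh and Gli3, and Gli1 has the widest spread, with Mll3 KO 1 at 50.3 CPM.

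Shh (ENSMUSG00000002633, mm10 chromosome 5, 28456815 to 28467256, minus strand), the ligand, was at 87.0, 82.5 and 83.4 CPM in Mll3 KO lungs 1 to 3 and at 72.3, 78.4 and 81.2 CPM in wild-type lungs 1 to 3. All 3 Mll3 KO values lay above all wild-type values, the nearest pair being 82.5 CPM in Mll3 KO 2 and 81.2 CPM in wild type 3. The means were 84.3 ± 2.38 CPM in Mll3 KO lungs and 77.3 ± 4.58 CPM in wild-type lungs (SD, n = 3 each), and the difference of 0.13 ± 0.07 (SE) in log2 units missed the threshold (adjusted p = 0.53). Its 95% interval ran from −0.02 to 0.27, that is from 0.987-fold to 1.21-fold. The difference was 0.21 on the log2 scale among samples of the first prefix and 0.03 among those of the second, each set holding a single library of one genotype. Markers of the epithelium, the source of Shh, summed to 2233 to 2367 CPM in Mll3 KO lungs and 2240 to 2424 CPM in wild-type lungs over 7 genes. None of the 7 passed, and they went both ways, with 3 higher and 4 lower in point estimate. In edgeR 5 of the 7 had an unadjusted p under 0.05, 2 higher and 3 lower, against 10.7% of all tested genes. The genotypes did not overlap in 5 of the 7, against 17% of all tested genes. Of these 5, Mll3 KO lay above in 2 and below in 3, and such opposite differences can cancel in the sum. The keratin genes Krt19 (log2 fold change −0.41, adjusted p = 0.11) and Krt8 (−0.37, adjusted p = 0.11) had the lowest p, and the largest upward estimates were those of Epcam (0.37, adjusted p = 0.13), which encodes an adhesion molecule, and Nkx2-1 (0.25, adjusted p = 0.27), which encodes a homeobox factor of lung epithelium.

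Ptch1 (ENSMUSG00000021466, chromosome 13, 63508328 to 63573598), the receptor and a transcriptional output of the pathway, was at 285, 263 and 235 CPM in Mll3 KO lungs and 224, 269 and 255 CPM in wild-type lungs. The genotypes overlapped, with Mll3 KO 1 highest and wild type 1 lowest, and the log2 fold change was 0.07 ± 0.09 (SE, adjusted p = 0.86). Hhip (ENSMUSG00000064325, chromosome 8, 79965851 to 80058006), the membrane-bound decoy that binds the ligand, was at 438, 525 and 491 CPM in Mll3 KO lungs and 449, 516 and 537 CPM in wild-type lungs. Its log2 fold change was −0.05 ± 0.10 (SE, adjusted p = 0.91), with a 95% interval from −0.26 to 0.17. The intervals of both genes leave room for changes of up to about 1.21-fold upward for Ptch1 and 0.836-fold downward for Hhip. Boc (ENSMUSG00000022687, chromosome 16), the co-receptor that presents ligand to Patched, varied least of the 9, between 66.3 and 71.5 CPM over all 6 libraries, and its log2 fold change was −0.02 with an interval from −0.16 to 0.12 (adjusted p = 0.94).

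Smo (ENSMUSG00000001761, chromosome 6), the membrane protein that carries the signal inward, was at 95.4, 90.2 and 76.4 CPM in Mll3 KO lungs and 79.7, 79.6 and 72.1 CPM in wild-type lungs. Mll3 KO 1 and 2 lay above all wild-type lungs while Mll3 KO 3 lay within their range, and the difference of 0.18 ± 0.09 (SE) in log2 units missed the threshold (adjusted p = 0.51). It was 0.107 without Mll3 KO 1 and 0.264 without Mll3 KO 3. With the title prefix as a term in edgeR it was 0.235 (unadjusted p = 0.0088, adjusted p = 0.13). In that fit 2 members, Smo and Gli3, had an unadjusted p under 0.05, as did 3182 of 19042 tested genes. Sufu (ENSMUSG00000025231, chromosome 19), which binds GLI proteins and restrains them, ranged from 41.9 to 45.8 CPM in Mll3 KO lungs and from 38.4 to 42.7 CPM in wild-type lungs (log2 fold change 0.09 ± 0.08, adjusted p = 0.72).

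Gli3 (ENSMUSG00000021318, chromosome 13, 15463235 to 15730026, plus strand), which encodes the GLI factor that acts mainly as a repressor when ligand is absent, was at 39.1, 43.9 and 36.3 CPM in Mll3 KO lungs and 27.8, 31.7 and 33.9 CPM in wild-type lungs. All Mll3 KO values were above all wild-type values. The means were 39.7 ± 3.84 CPM in Mll3 KO lungs and 31.1 ± 3.06 CPM in wild-type lungs (SD, n = 3 each), a log2 fold change of 0.35 ± 0.10 (SE) with a 95% interval from 0.13 to 0.58. It had an unadjusted p of 0.0061 and did not pass over all genes (adjusted p = 0.22). In an edgeR fit over all genes with at least 1 read, where 1.28% of genes were called, it passed at an adjusted p of 0.048. The differences were 0.39 within the first prefix and 0.24 within the second.

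Gli1 (ENSMUSG00000025407, chromosome 10, 127329882 to 127341974), a GLI activator and the usual readout of the pathway, spread most of the 9 genes. It was at 50.3, 38.2 and 27.5 CPM in Mll3 KO lungs and at 26.1, 34.0 and 34.9 CPM in wild-type lungs. Mll3 KO 1 was the highest of the 6 libraries, and Mll3 KO 3 was below wild type 2 and 3. The SD was 29.4% of the mean in Mll3 KO lungs and 15.3% in wild-type lungs, and the difference of 0.29 ± 0.23 (SE) in log2 units missed the threshold (adjusted p = 0.72). It was 0.05 without Mll3 KO 1 and 0.48 without Mll3 KO 3. Within the first prefix, which holds Mll3 KO 1, the difference was 0.75, and within the second it was −0.11. Gli2 (ENSMUSG00000048402, chromosome 1), which encodes the main GLI activator, was at 19.0, 21.6 and 16.1 CPM in Mll3 KO lungs and 17.8, 18.2 and 19.7 CPM in wild-type lungs, so the wild-type values lay inside the range of the Mll3 KO values (log2 fold change 0.02 ± 0.12, adjusted p = 0.97).

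Mll3 KO 1 held the highest value of the 6 libraries in 5 of the 9 members, Shh, Ptch1, Smo, Gli1 and Sufu, and it was highest for 26.5% of all tested genes. For Hhip it held the lowest. Gli1 stood at 1.59 times the wild-type mean in Mll3 KO 1, 1.20 times in Mll3 KO 2 and 0.869 times in Mll3 KO 3, while Hhip stood at 0.875, 1.05 and 0.980 times. Ptch1, also an output gene, stood at 1.14, 1.05 and 0.944 times. Hhip, with wild type 1 at 449 CPM, was only slightly lower at 438 CPM in Mll3 KO 1. Of the markers of mesenchymal cells, which receive the signal, those of fibroblasts had their lowest sum there and those of smooth muscle did not. The 8 fibroblast markers summed to 6961 CPM in Mll3 KO 1, against 9299 and 8660 CPM in Mll3 KO 2 and 3 and 9283 to 10710 CPM in wild-type lungs, and 0 of the 8 passed. The 7 smooth muscle markers summed to 402, 452 and 308 CPM in Mll3 KO lungs and to 933, 465 and 355 CPM in wild-type lungs, where wild type 1 stood apart. All 7 were lower in point estimate and none passed. The part of these cell types in the hedgehog values was not tested.

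On a scale of reads per kilobase of annotated exon, scaled for depth (RPKM), which allows levels to be compared between genes, the order over the 6 libraries was Hhip, Shh, Ptch1, Boc, Smo, Gli1, Sufu, Gli3 and Gli2. Hhip averaged 53.4 ± 4.85 RPKM in Mll3 KO lungs and 55.2 ± 5.06 RPKM in wild-type lungs (SD, n = 3 each), above Shh at 29.6 ± 0.836 RPKM in Mll3 KO lungs and 27.1 ± 1.61 RPKM in wild-type lungs. Ptch1 was at 18.4 ± 1.74 RPKM in Mll3 KO lungs and 17.6 ± 1.63 RPKM in wild-type lungs. The ranges of Ptch1 and Boc overlapped, as did those of Boc and Smo, of Gli1 and Sufu, and of Gli3 and Gli2, so those neighbours are not ordered beyond their spread. Gli1 at 7.04 RPKM over all 6 libraries was above Gli3 at 3.70 and Gli2 at 2.73 RPKM. The decoy Hhip exceeded Gli2 by 19.9-fold, and it stood above 95.8% of all tested genes. The exon length counts every annotated isoform, so a gene with long unused exons reads low on this scale.

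**Figure D2:**
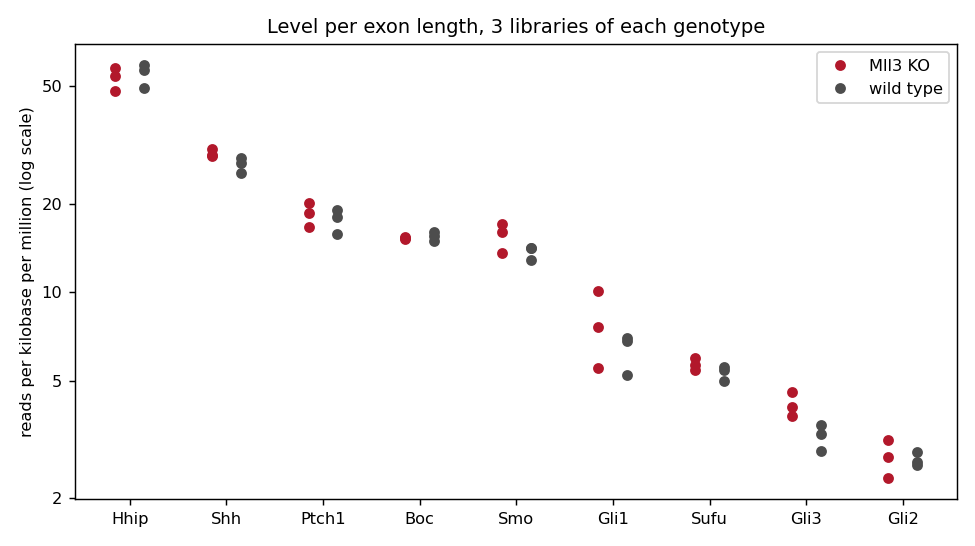
Level per exon length (y axis, RPKM, log scale) of the 9 hedgehog genes ordered by their mean, with 3 Mll3 KO libraries (red, left) and 3 wild-type libraries (grey, right). The order is shared by both genotypes at its ends, from Hhip at 48.3 to 59.2 RPKM down to Gli2 at 2.34 to 3.15 RPKM.

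Other genes of the pathway were read from 4 lists by role. Of 36 genes, 35 were tested, 0 rose, 1 fell and 34 did not pass, and the median log2 fold change was 0.06. Of all tested genes 0.063% rose and 0.305% fell. An unadjusted p under 0.05 was reached by 6 of the 35, 4 higher and 2 lower, against 10.7% of all tested genes. The genotypes did not overlap in 8 of the 35, 6 with Mll3 KO above and 2 below, against 17% of all tested genes. The ligand gene Ihh, with 3 to 10 reads per library, had too few to be tested.

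Among 7 tested genes of other ligands and of ligand release, Scube2 (ENSMUSG00000007279, mm10 chromosome 7, 109798676 to 109865679, minus strand) was the gene that fell. It encodes a secreted protein that helps lipid-modified hedgehog ligand leave the cell. It was at 20.1, 26.1 and 31.7 CPM in Mll3 KO lungs 1 to 3 and at 50.2, 49.9 and 47.7 CPM in wild-type lungs 1 to 3. The wild-type lungs lay close together and every Mll3 KO lung was well below them. The means were 26.0 ± 5.82 CPM in Mll3 KO lungs and 49.3 ± 1.35 CPM in wild-type lungs (SD, n = 3 each), a log2 fold change of −0.93 ± 0.14 (SE, adjusted p = 0.043). With Scube2 at 0.526 of the wild-type level, the 95% interval ran from 0.419 to 0.661. DESeq2 called it at an adjusted p of 1.25e-07 and limma voom at 0.037. The difference was −1.31 within the first prefix and −0.73 within the second. The call was lost without Mll3 KO 2 (−0.93, adjusted p = 0.16), wild type 1 (−0.92, adjusted p = 0.16), wild type 2 (−0.92, adjusted p = 0.16) or wild type 3 (−0.95, adjusted p = 0.20), with the size nearly the same.

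Its relatives Scube3 and Scube1 did not pass. Scube3 was at 5.90, 7.24 and 4.76 CPM in Mll3 KO lungs and 3.66, 3.88 and 4.75 CPM in wild-type lungs (log2 fold change 0.54, adjusted p = 0.33), and Scube1 at 9.61 ± 0.404 CPM in Mll3 KO lungs and 8.32 ± 0.426 CPM in wild-type lungs (0.21, adjusted p = 0.57). For both, as for Hhat below, all Mll3 KO values were above all wild-type values, as in 8.6% of all tested genes. Hhat, the acyltransferase that adds palmitate to the ligand, was at 5.66 ± 0.250 CPM in Mll3 KO lungs and 4.18 ± 0.363 CPM in wild-type lungs (0.44, adjusted p = 0.31). Disp1, the transporter that exports the ligand, was at 20.1 CPM in Mll3 KO lungs and 20.4 CPM in wild-type lungs (adjusted p = 0.97). Differences between these genes and Scube2 were not tested.

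Alveolar type 1 markers, genes of the flat gas-exchange cells, were lower in Mll3 KO lungs, as Scube2 was. In all 6 every Mll3 KO value lay below every wild-type value, as in 8.45% of all tested genes. By edgeR 3 of the 6 passed, against 0.305% of all tested genes that fell. Pdpn (adjusted p = 0.039) and Clic5 (adjusted p = 0.042) had the lowest p. The sum of the 6 ran from 1894 to 2198 CPM in Mll3 KO lungs and from 2746 to 3068 CPM in wild-type lungs. None of the defining markers was near 0, the lowest, Aqp5, reaching 90.5 CPM in its highest library. Mesothelial markers, 4 genes of the pleural lining, summed to 274 to 365 CPM in Mll3 KO lungs and 429 to 523 CPM in wild-type lungs, and none passed. Msln, the most abundant of the 4, had a log2 fold change of −0.89 (adjusted p = 0.061), while 2 of the 4 were higher in point estimate, among them Wt1 at 0.32 (adjusted p = 0.76), and the median was −0.06. The 6 endothelial markers summed to 1709 to 1810 CPM in Mll3 KO lungs and 1830 to 2155 CPM in wild-type lungs, with 0 of 6 past the threshold. Markers of multiciliated cells were lower in point estimate in 6 of 6, with a median of −0.67, and 0 of 6 passed. The part of any of these cell types in the Scube2 value was not tested.

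**Figure D3:**
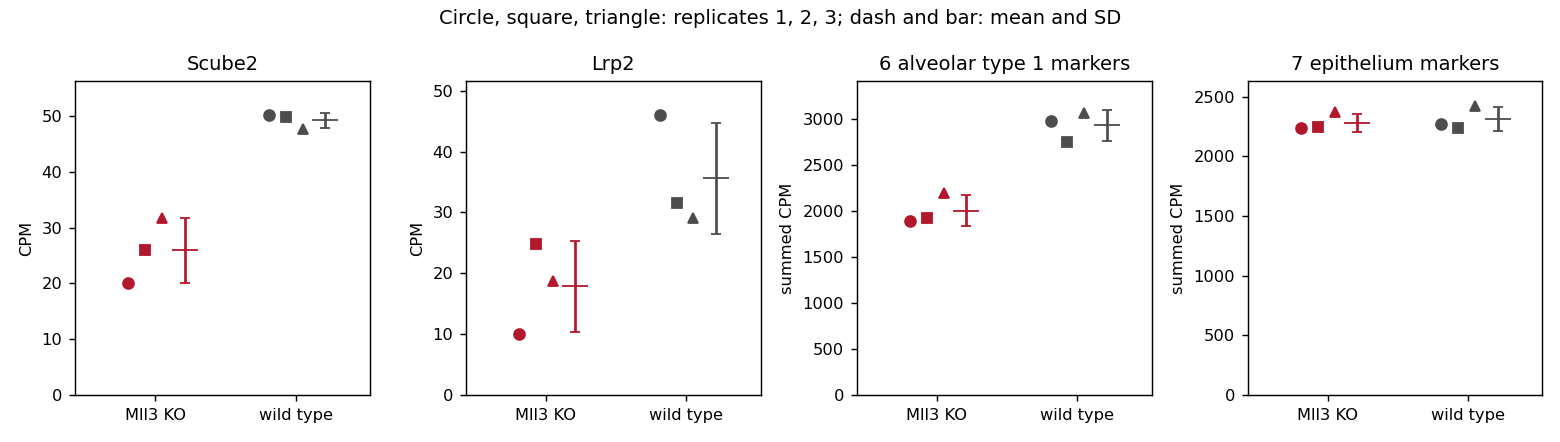
CPM of Scube2 and Lrp2 and summed CPM of 6 alveolar type 1 markers and 7 epithelium markers (y axes, from 0) in the 3 Mll3 KO lungs (red, left) and 3 wild-type lungs (grey, right), with mean and SD. Scube2, Lrp2 and the type 1 markers do not overlap between genotypes. The sums of the epithelium markers share a range of 2240 to 2367 CPM, although 5 of these 7 genes taken singly do not overlap.

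Of 4 other receptors and surface proteins, 0 passed, with a median log2 fold change of −0.22. Lrp2, the large endocytic receptor that can bind the ligand, was at 9.96, 24.8 and 18.7 CPM in Mll3 KO lungs and 46.0, 31.6 and 29.2 CPM in wild-type lungs. The genotypes did not overlap, but both spread widely, and the difference of −1.002 ± 0.38 (SE) in log2 units missed the threshold (adjusted p = 0.45). Gas1, a membrane-anchored co-receptor, was at 17.0 ± 3.65 CPM in Mll3 KO lungs and 23.4 ± 7.83 CPM in wild-type lungs (−0.46, adjusted p = 0.59). Gpc3, a glypican that competes with Patched for ligand, was at 276, 320 and 237 CPM in Mll3 KO lungs and 264, 250 and 286 CPM in wild-type lungs (0.06, adjusted p = 0.90). Cdon, a co-receptor related to Boc, was at 46.5 ± 9.14 CPM in Mll3 KO lungs and 46.0 ± 6.99 CPM in wild-type lungs (0.02, adjusted p = 0.99). The genotypes overlapped in Gpc3, Gas1 and Cdon.

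Of 14 cytoplasmic and ciliary regulators 0 passed, with 2 at an unadjusted p under 0.05 and a median of 0.03. The genotypes did not overlap in 3 of the 14, each with Mll3 KO above, as in 8.6% of all tested genes. Gpr161, a ciliary receptor that keeps the pathway off in the absence of ligand, had the lowest p of the 14. It was at 21.7, 21.1 and 17.3 CPM in Mll3 KO lungs and 14.05, 16.1 and 14.6 CPM in wild-type lungs, without overlap (log2 fold change 0.43 ± 0.11, adjusted p = 0.17). It passed with the title prefix as a term in the model (0.46, adjusted p = 0.049), where 3.28% of all tested genes did. Evc2, a ciliary protein that relays the signal of Smoothened, was at 26.5 ± 3.35 CPM in Mll3 KO lungs and 22.5 ± 1.21 CPM in wild-type lungs (0.24, adjusted p = 0.45), and Kif7, the kinesin of the ciliary tip that organises GLI proteins, at 16.4 ± 1.25 CPM in Mll3 KO lungs and 13.7 ± 1.86 CPM in wild-type lungs (0.26, adjusted p = 0.48). Btrc, a ubiquitin ligase subunit that targets GLI proteins for processing or degradation, was at 46.6 ± 0.981 CPM in Mll3 KO lungs and 42.1 ± 1.34 CPM in wild-type lungs (0.15, adjusted p = 0.50).

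Of 10 further genes described as downstream of hedgehog signals in mesenchyme, 0 passed and 0 had an unadjusted p under 0.05, and DESeq2 and limma voom called none of them either. The median log2 fold change was 0.09. Foxf1, a forkhead factor of lung mesenchyme, was at 164, 147 and 152 CPM in Mll3 KO lungs and 137, 161 and 144 CPM in wild-type lungs (0.07 ± 0.08, adjusted p = 0.80). Bmp4, which encodes a growth factor, was at 54.6 ± 1.23 CPM in Mll3 KO lungs and 50.7 ± 3.20 CPM in wild-type lungs (0.11, adjusted p = 0.65). Ccnd1, which encodes a cyclin, was at 225 ± 19.2 CPM in Mll3 KO lungs and 208 ± 14.5 CPM in wild-type lungs (0.12, adjusted p = 0.66). Foxl1 reached 5.40 CPM in Mll3 KO 1 and 1.76 to 3.49 CPM in the other 5 libraries (0.48 ± 0.35, adjusted p = 0.68), and Mycn reached 13.8 CPM in Mll3 KO 1 (0.23 ± 0.17, adjusted p = 0.69). Mll3 KO 1, the library where Gli1 was highest, held the highest value in 3 of the 10 genes, against 26.5% of all tested genes.

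**Figure D4:**
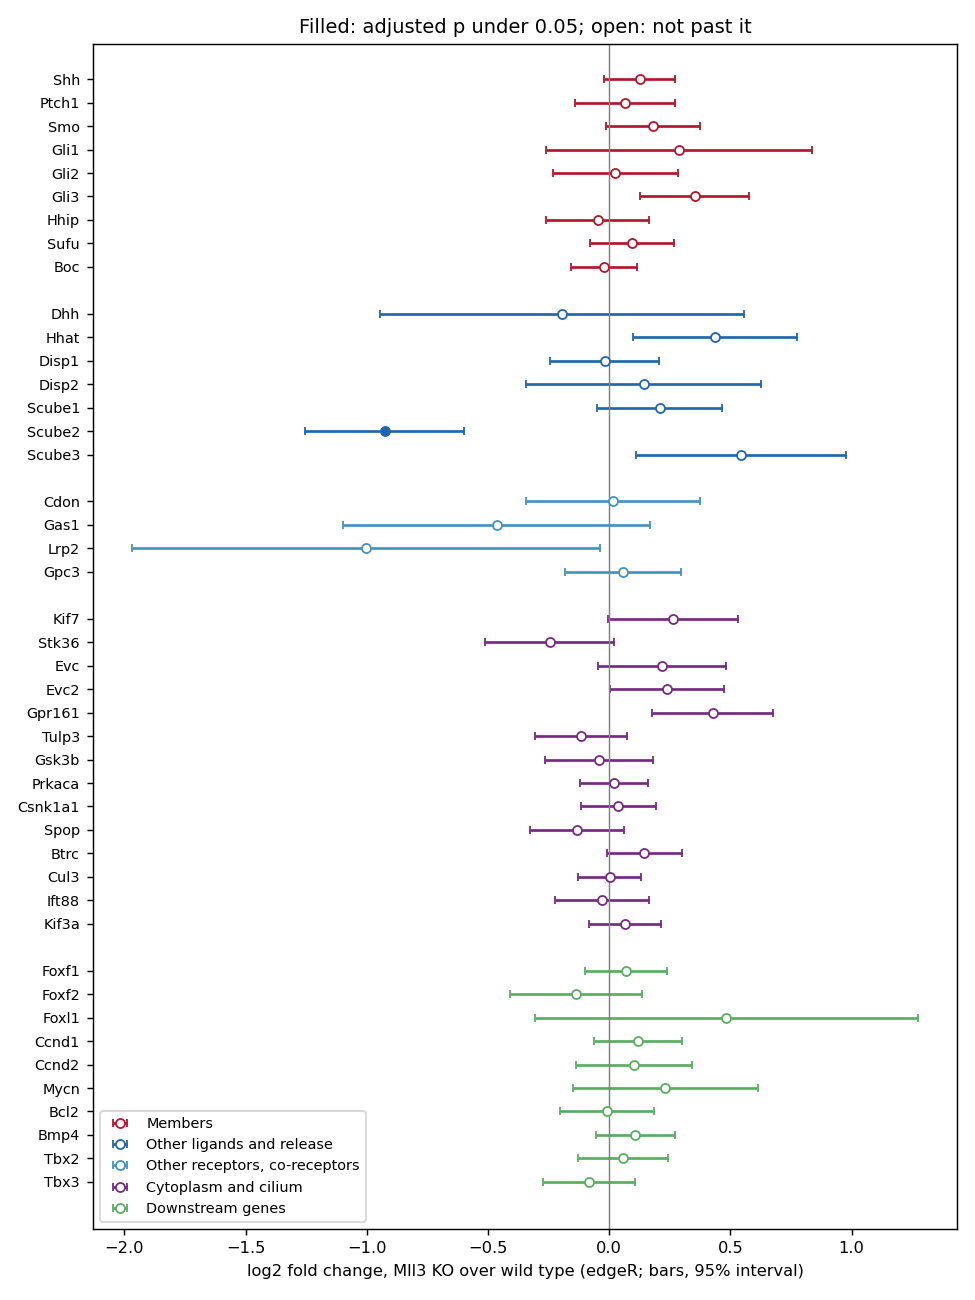
Log2 fold change, Mll3 KO over wild type (x axis), with its 95% interval for the 9 members and 35 other tested pathway genes, coloured by role and listed down the page. The filled point, Scube2 at −0.93, is the gene past an adjusted p of 0.05, and open points are the others, most of whose intervals include 0.

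Genes whose profile over the 6 libraries was most like that of a member were found by the root mean square difference of centred log2 CPM, among 13925 named genes of at least 1 CPM. For Gli1 they were Procr (difference 0.07), Spc24 (0.09) and Fgf9 (0.09), against a spread of Gli1 about its own mean of 0.31. Fgf9, which encodes a growth factor, was at 6.86, 4.84 and 3.69 CPM in Mll3 KO lungs and 3.61, 3.92 and 4.47 CPM in wild-type lungs. Mll3 KO 1 was highest, which follows from its choice by likeness to Gli1. For Ptch1 they were Rwdd2b, Akap17b and Gata5 (0.03 each). For Shh they were Hnrnpd (0.01), Fgd2 and Stk11ip (0.02 each), and for Hhip Gtf2a1, Slc35e3 (0.02 each) and Csnk2a1 (0.03). With 6 libraries and so many genes, near matches can arise for a flat profile, and the differences are given as a description only.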

How the data were processed

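Polyadenylated RNA of E18.5 lungs was made into strand-specific libraries and read as 75 bp single reads, per the labels' protocols. The submitters' processing notes name bcl2fastq 2.19.1, GSNAP, featureCounts 1.6.3, DESeq2 1.24.0 and mm10. The authors deposited raw counts per gene, made per the file headers with featureCounts in strand mode 2 with a mapping quality of at least 1 on Ensembl 98 gene models; all its values were whole numbers. In the authors' other deposited table each count was scaled to a normalized signal by 1 size factor per library and rounded; multiplied back, 100% of its values gave back the count within 0.1 read. A count summed over exons merges isoforms, and a quality filter removes reads of near-identical copies.

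ERCC rows (92, with 1 read) were left out. Of 34615 genes with a read, filterByExpr kept 19042, holding 99.79 to 99.88% of reads. edgeR 4.0.16 (R 4.3.3; TMM, robust quasi-likelihood, genotype as the only term) gave fold changes, 95% intervals and p-values adjusted over all genes by Benjamini-Hochberg, with a threshold of 0.05; each standard error is the size of the log2 change over the root of F. The fits were tested on simulated counts of 3 against 3 libraries. There edgeR called 49.3% of genes given a 1.5-fold change and 82.6% of those given a 2-fold change, so small changes can be missed. The changed genes were drawn at random from all but the lowest levels, so these shares are not rates for the 9 members. Alternatives were DESeq2 1.42.0, limma voom (3.58.1), other scalings and filters, limma on the normalized signal, added terms, and each library left out. The members and lists were chosen with earlier results of these data known. Named genes were all 9 members, up to 4 genes with the lowest p of each other hedgehog list, up to 2 markers of the lists set beside a member, and the 3 profiles most like Shh, Ptch1, Gli1 and Hhip; Disp1, Foxf1, Aqp5, Epcam and Nkx2-1 were added after their values were seen. A single gene of the hedgehog lists is not reported here.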

Additional observations from a re-analysis of the deposited data

How the results depend on the processing

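Over 16 other settings, the 9 member genes gave 144 values of log2 fold change. Of these 135 kept their sign and their side of the threshold, 1 passed it (Gli3 with no filter on low counts, 0.35, which made the count of members called 1) and 8 changed sign near 0. Over the refits without 1 library each, no member passed, and the values ran from −0.01 to 0.13 for Ptch1, −0.083 to 0.125 for Gli2, −0.12 to 0.017 for Hhip and −0.052 to 0.001 for Boc; Boc was also 0.013 with library size as the only scaling. The other pathway genes called numbered 2 with no filter and 2 in the model that held the title prefix (Scube2 and Gpr161 in both), and 0 to 1 over the refits without 1 library. Scube2 was called in 12 of the 16 settings, between −1.10 and −0.77. Over all genes, 356 were called by DESeq2, 443 with no filter, 625 with the title prefix in the model and 32 with a term for the split by Xist and Y-linked reads, against 70, and 0 to 41 without 1 library each. The 0 came without wild type 2 or without wild type 3, where 1954 and 1629 genes had an unadjusted p under 0.05. The causes were not tested. The split by Xist and Y-linked reads sets Mll3 KO 3 alone apart, so its term in effect leaves that library out. Gli1 was 0.482 with the term and 0.48 without Mll3 KO 3. The title prefix, which both genotypes carry at both of its values, was the block that could be fitted, with the counts above; a pairing of lungs one to one was not made, since the labels give none. The 9 genes had 344 to 11840 reads per library, so counting error matters most for Gli2, the lowest.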
